A study of Mus musculus with 16 samples.

Results

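The mitochondrial respiratory chain and ATP synthase were examined on two-colour cDNA arrays of EMP3 mutant mice. Members were the probes whose symbol in the platform annotation starts with Nduf, Cox4 to Cox8, Uqcr or Atp5, or is Sdha, Sdhb, Sdhc or Sdhd. This gave 72 of the 9030 genes named on the array, through 98 of its 20794 probes, of which 12771 carry 1 gene symbol. Complex I held 39 probes of 31 genes, complex II 4 probes of 4 genes, complex III 9 probes of 7 genes, complex IV 22 probes of 15 genes and complex V, the ATP synthase, 24 probes of 15 genes.

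RNA came from the spleen and thymus of 4 male mice labelled as EMP3 mutant, aged 17 weeks, and was compared with a pool of male wild-type mice of that age and tissue. Emp3 encodes a membrane protein related to PMP22. The kind of mutation, its allele and the strain background are not given in the labels, and no treatment is named. Each mouse and tissue was hybridised on 2 arrays with the dyes exchanged, 16 arrays in all. The pool held 4 mice by the channel labels and the design text and 6 by the labelling protocol. The series title speaks of thymus and brain where the sample labels read spleen and thymus, and the sample labels were followed. The values are ratios without intensities, so the named tissue could not be checked against the level of its defining markers.

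The respiratory chain passes electrons from NADH, through complex I, and from succinate, through complex II, to coenzyme Q, complex III, cytochrome c and finally oxygen at complex IV. Complexes I, III and IV pump protons across the inner mitochondrial membrane, and complex V uses the proton gradient to make ATP. Most subunits are encoded in the nucleus, and the proton-pumping complexes and the ATP synthase also hold subunits encoded by mitochondrial DNA. In lymphoid organs activated lymphocytes draw on this machinery, and maturing red cells lose their mitochondria.

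A value is a log2 ratio read as mutant over pool, so a positive value is higher in the mutant. No label states the log base or the numerator; mutant over pool is likely from the order in the design text. With the pool on top, every direction would be the opposite. Dye-exchanged arrays were read as holding ratios of 1 orientation. On that reading, over all probes, the correlation within a mouse was 0.052 to 0.424 in spleen but -0.440 to -0.249 in thymus mice 1, 3 and 4. Thymus mouse 2 stood apart: its arrays correlated at -0.922, with 83.5% of the sums of both values within 0.01 of their median, against 1.28% to 5.80% in the other pairs. It was left out of the thymus values. The probes of Emp3 itself gave mean spleen log2 ratios of 0.20 and 0.27 (adjusted p = 0.204 and 0.214, limma) and thymus log2 ratios of -0.04 and 0.05 (adjusted p = 0.886 and 0.866). They made no call in either tissue, and their place in the transcript is not given.

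In spleen, members of every complex changed: both up and down in complexes I, IV and V, with a single lower probe in complex II and a single higher one in complex III. Of 89 members tested, 12 were higher and 9 lower at an adjusted p of at most 0.05 in limma's one-sample test over 4 mice, 23.6% of them. The background was the same test over all 20127 probes, of which 25.3% passed (13.4% higher and 11.9% lower). The members' share was thus close to that of the whole array. Their median log2 ratio was 0.02 against 0.04 for all probes, and their quartiles were -0.11 and 0.19 against -0.13 and 0.20. The called members came from 20 genes, of which 11 had higher calls, 8 lower calls and 1, Cox4i1, both. All 21 had 1 sign in every mouse measured, and 16 of them (76.2%) had 1 sign on every spleen array, against 65.5% of all called probes. Their median size was 0.41, against 0.42 for all called probes.

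By complex, 6 probes rose and 3 fell among 37 tested in complex I, with a median log2 ratio of 0.08 over the complex. In complex II 1 of 4 fell, and the median was -0.01. In complex III 1 of 8 rose, with a median of -0.06. In complex IV 3 rose and 3 fell among 18, with a median of 0.05, and in complex V 2 rose and 2 fell among 22, with a median of 0.01. Per mouse, the complex I median ran from -0.01 to 0.16, that of complex IV from -0.01 to 0.08 and that of complex V from -0.06 to 0.06. The largest per-mouse median in size was 0.18, of complex III in mouse 2. In whole tissue, fewer cells of a type and less RNA per cell cannot be told apart.

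**Figure D1:**
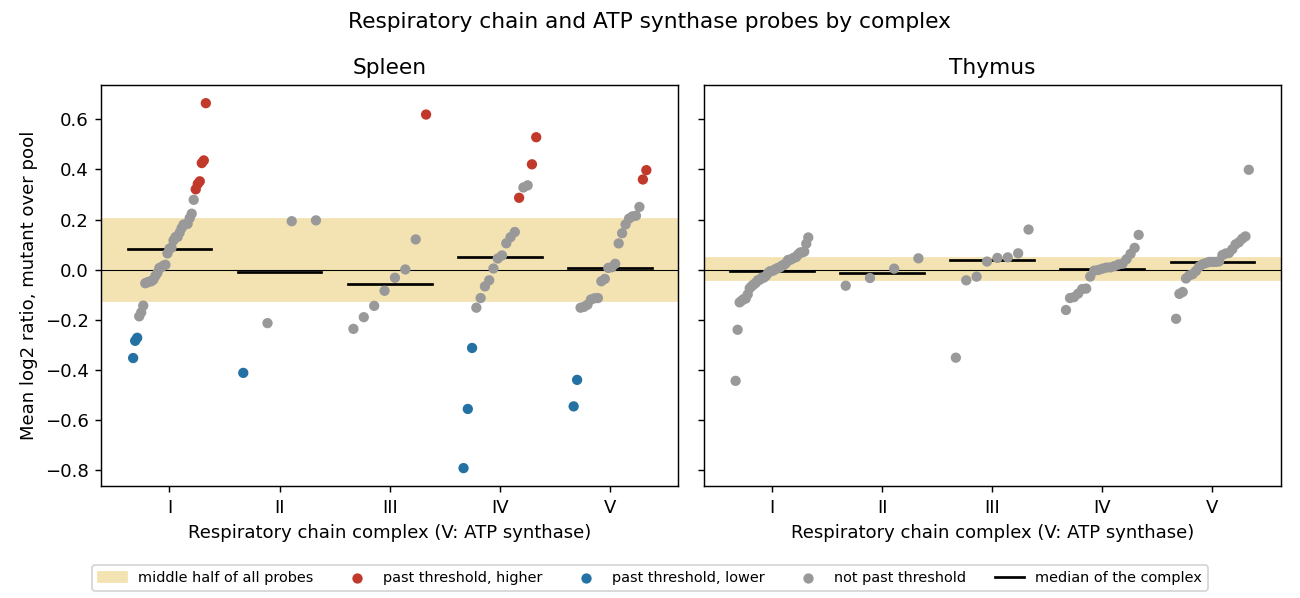
Each point is 1 member probe at its mean log2 ratio (mutant over pool) in spleen (4 mice) or thymus (3 mice), grouped by complex on the x axis and sorted within it; colours mark probes past the threshold, bars the median of the complex, and the band spans the quartiles of all probes on the array. The complex medians stay between -0.06 and 0.08 in spleen, with 12 probes above and 9 below that passed, and no thymus point passed.

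A single wild-type pool per tissue served as the control throughout, so the spread between wild-type mice does not enter these p-values, which measure the spread between mutant mice. With the variance of such a pool added, 5 of the 89 spleen members passed (5.62%), against 8.33% of all probes. An exact sign-flip test could not go below p = 0.125 with 4 mice or 0.25 with 3. Without mouse 2 the spleen fit called 8 of 82 members (9.76%, against 12.1% of all probes) and without mouse 4 it called 9 of 82 (10.98% against 12.2%). Without mouse 1 it called 20 of 84 (23.8% against 24.8%) and without mouse 3 it called 17 of 87 (19.5% against 19.5%). With the arrays of mutant RNA in Cy3 turned in sign, which is the other reading of the deposited ratios, no member was called in spleen by limma (20 at an unadjusted p of at most 0.05), and 1 of all 20127 probes was. Each array also held an extreme constant, which was set to missing. It was positive on every array with the mutant in Cy5 (15.1 to 16.6) and negative on every array with it in Cy3 (-15.7 to -16.9). Whether that sign came from turning the Cy3 arrays before deposit was not tested.

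Promoter windows of RefSeq (GRCm38.p6, 250 bases before to 50 after a gene's start) were found by gene ID for 61 of the 72 genes, with 66 entries. They were searched on both strands for GCATGCGC (the core bound by NRF1, a regulator of nuclear genes for mitochondrial proteins), CCGGAAG (an ETS motif of the kind bound by GABP), AAGATGGCG (YY1) and TATAAA. GCATGCGC stood in 13.6% of the member promoters against 2.71% of all 32851 promoters, CCGGAAG in 24.2% against 8.86%, AAGATGGCG in 9.09% against 1.40% and TATAAA in 13.6% against 13.6%. Among promoters of genes with a higher call, 0 of 10 held GCATGCGC, 2 held CCGGAAG and 1 held AAGATGGCG. Among those with a lower call the counts were 2, 4 and 1 of 7, and among those without a call 7, 10 and 4 of 49. Those without a call include genes not tested in spleen, such as Ndufa8 and Uqcrh. A match is a description of the letters and not of binding. The 100 bases before the start are printed for 5 called members, with motif matches in capitals. Cox7b and Cox5b made the largest lower and higher spleen calls of complex IV and hold none of the motifs there. Sdhb, lower in spleen, holds GCATGCGC, and Cox6b1, lower, and Ndufb7, higher, hold CCGGAAG, that of Cox6b1 on the opposite strand. Cox7b lies on the plus strand at chrX:106015600-106015699, Cox5b on the plus strand at chr1:36691387-36691486 and Sdhb on the plus strand at chr4:140961171-140961270. Cox6b1 lies on the minus strand at chr7:30626115-30626214 and Ndufb7 on the plus strand at chr8:83566658-83566757.
Cox7b: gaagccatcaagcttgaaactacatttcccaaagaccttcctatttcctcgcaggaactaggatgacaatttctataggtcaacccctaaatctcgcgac
Cox5b: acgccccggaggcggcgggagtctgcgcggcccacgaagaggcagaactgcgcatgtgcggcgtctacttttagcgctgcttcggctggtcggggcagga
Sdhb: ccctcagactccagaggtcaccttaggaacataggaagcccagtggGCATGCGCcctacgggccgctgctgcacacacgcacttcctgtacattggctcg
Cox6b1: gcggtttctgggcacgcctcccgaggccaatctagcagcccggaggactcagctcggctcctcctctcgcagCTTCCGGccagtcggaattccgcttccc
Ndufb7: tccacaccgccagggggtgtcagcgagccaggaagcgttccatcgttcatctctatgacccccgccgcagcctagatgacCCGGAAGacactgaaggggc

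Complex I, which takes electrons from NADH, held 9 of the 21 spleen calls and 37 of the 89 members tested. Its share called was 24.3%, close to the 25.3% of all probes. Of its accessory subunits, which surround and stabilise the catalytic core, 5 of 28 probes rose and 3 fell. Of its core subunits, which carry the electrons, 1 of 5 rose, and of its assembly factors, which build the complex and leave it, 0 of 4 passed. The assembly factors Ndufaf1, Ndufaf3, Ndufaf5 and Ndufaf7 had mean log2 ratios of 0.02 to 0.21.

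Ndufb9, an accessory subunit of the membrane arm, gave log2 ratios of 1.05, 0.46, 0.66 and 0.48 in mice 1 to 4. The mean of 0.66 ± 0.27 (SD, n = 4) is 1.58-fold and passed at an adjusted p of 0.0101 (limma). All 8 spleen arrays were above 0, and the lowest spleen mouse lay above the 3 thymus mice. Ndufb7, also of the membrane arm, gave 0.26, 0.42, 0.82 and 0.26, a mean log2 ratio of 0.44 ± 0.26 (SD, n = 4, adjusted p = 0.0339), with mouse 3 the highest and 7 of 8 arrays above 0. Ndufs4, an accessory subunit of the matrix arm that is needed for a stable NADH-oxidising module, gave 0.30, 0.58, 0.40 and 0.43 with probe 3329, a mean log2 ratio of 0.43 ± 0.12 (SD, n = 4, adjusted p = 0.00987). Its other probe, 10903, was measured on both arrays only in mice 1 and 2, at log2 ratios of -0.79 and -2.46, and was not tested in spleen.

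The core subunit Ndufs8, which carries iron-sulfur clusters on the way to coenzyme Q, had a mean log2 ratio of 0.35 ± 0.14 (SD, n = 3, adjusted p = 0.0436). Its mice 1, 2 and 4 gave 0.22, 0.50 and 0.34, mouse 3 had no value, and 5 arrays lay above 0 and 2 below. The other core probes, of Ndufs1, Ndufs7 and Ndufv1, had means of -0.01 to 0.15 and did not pass. Ndufa13, an accessory subunit also known as GRIM-19, and Ndufa1, a small subunit of the membrane arm, rose as well, and both were named after their values had been seen. Ndufa13 gave 0.55, 0.32, 0.29 and 0.21, a mean log2 ratio of 0.34 ± 0.15 (SD, n = 4, adjusted p = 0.0246), with mouse 1 the highest. Ndufa1 gave 0.33, 0.33, 0.31 and 0.31 with probe 18589, a mean of 0.32 ± 0.01 (SD, n = 4, adjusted p = 0.0122). That narrow spread held only for the means of the pairs, since the arrays with the mutant in Cy5 averaged 0.12 and those in Cy3 0.53.

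The 3 complex I probes that fell were all of accessory subunits. Ndufa9, at the junction of the matrix and membrane arms, gave -0.38, -0.31, -0.21 and -0.51, a mean log2 ratio of -0.35 ± 0.13 (SD, n = 4, adjusted p = 0.0186). All 8 arrays lay below 0. Ndufa10, whose fold resembles a nucleoside kinase, gave -0.23, -0.35, -0.21 and -0.30 with probe 1628, a mean of -0.27 ± 0.07 (SD, n = 4, adjusted p = 0.0254), also with 8 of 8 arrays below 0. Ndufa2, a small subunit of the matrix arm, gave -0.36, -0.22, -0.46 and -0.09, a mean of -0.28 ± 0.16 (SD, n = 4, adjusted p = 0.0489), with mouse 4 the nearest to 0. Ndufb9 and Ndufs4 probe 3329 kept their calls without any 1 mouse. Ndufa1, Ndufa9, Ndufa10 and Ndufb7 lost theirs without mouse 2 (adjusted p = 0.0571 to 0.103) and without mouse 4 (0.0577 to 0.101). Ndufa13 lost it without mouse 2, 3 or 4 (0.0512 to 0.0825), and Ndufa2 whichever mouse was left out (0.0658 to 0.123). Ndufs8 had too few mice to leave out mouse 1, 2 or 4.

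Complex II, succinate dehydrogenase, divided by role in its means. The iron-sulfur subunit Sdhb fell, with log2 ratios of -0.24, -0.45, -0.50 and -0.46 in mice 1 to 4 and a mean of -0.41 ± 0.12 (SD, n = 4, adjusted p = 0.011). All 8 arrays were below 0, and mouse 1 was the nearest to it. The flavoprotein Sdha, the other catalytic subunit, had a mean log2 ratio of -0.21 (adjusted p = 0.0825), with 8 of 8 arrays below 0. The membrane anchors Sdhc and Sdhd, which hold the coenzyme Q site, had means of 0.20 (adjusted p = 0.0798) and 0.19 (adjusted p = 0.11), each with 6 of 8 arrays above 0. Those 3 did not pass, although all 4 members had an unadjusted p below 0.05, against 31 of the 89 members and 8031 of all 20127 probes. The Sdhb call was lost without mouse 2 (adjusted p = 0.052) and without mouse 4 (0.0549).

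Complex III, which passes electrons from coenzyme Q to cytochrome c, had 1 call. Uqcrfs1, the Rieske iron-sulfur protein at the centre of that transfer, gave 0.40, 0.89, 0.77 and 0.41. Its mean log2 ratio of 0.62 ± 0.25 (SD, n = 4) is 1.54-fold and passed at an adjusted p of 0.0104. All 8 arrays were above 0, with a mean of 0.98 for the mutant in Cy5 and 0.26 in Cy3. The core proteins Uqcrc1 and Uqcrc2 had means of -0.14 and 0.00 and did not pass (adjusted p = 0.457 and 0.994). The 5 probes of small subunits tested had means from -0.24 to 0.12, and none passed.

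Complex IV, cytochrome c oxidase, held both the lowest and the third highest call among the members. Cox7b, a small subunit of the common enzyme, gave -0.57, -0.76, -0.93 and -0.89 with probe 15930. The mean log2 ratio of -0.79 ± 0.16 (SD, n = 4) is 1.73-fold lower and passed at an adjusted p of 0.00401. All 8 arrays were below 0, at a mean of -0.95 with the mutant in Cy5 and -0.63 in Cy3. Cox5b, a zinc-binding subunit on the matrix side, gave 0.50, 0.46, 0.68 and 0.47, a mean log2 ratio of 0.53 ± 0.10 (SD, n = 4, adjusted p = 0.005) or 1.44-fold. All 8 of its arrays were above 0, and the mice lay close to each other. The Cox5b mean was 0.81 with the mutant in Cy5 and 0.24 in Cy3.

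Cox4i1, the ubiquitous form of the largest nuclear-encoded subunit, was called both ways. Probe 663 gave -0.56, -0.64, -0.44 and -0.58, a mean log2 ratio of -0.56 ± 0.09 (SD, n = 4, adjusted p = 0.00422). Probe 6773 gave 0.48, 0.29, 0.18 and 0.19, a mean of 0.29 ± 0.14 (SD, n = 4, adjusted p = 0.0385). The groups of 4 mice did not overlap, so no direction is given for the gene. Cox7b2, a form of Cox7b known from testis, gave 0.22, 0.57, 0.33 and 0.57, a mean of 0.42 ± 0.18 (SD, n = 4, adjusted p = 0.0177), with all 8 arrays above 0. Cox6b1, a subunit facing the intermembrane space, gave -0.38, -0.17, -0.47 and -0.22 with probe 15940, a mean of -0.31 ± 0.14 (SD, n = 4, adjusted p = 0.0313), with all 8 arrays below 0. The probes of Cox7a1, a form typical of muscle, had means of -0.11 and 0.00 and did not pass. Cox7b, Cox5b and Cox4i1 probe 663 kept their calls without any 1 mouse. Cox7b2 lost its call without mouse 2 (adjusted p = 0.0724) and without mouse 4 (0.0751). Cox6b1 lost it whichever mouse was left out (0.0607 to 0.0817), as did Cox4i1 probe 6773 (0.0575 to 0.119).

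Complex V had 2 probes that rose and 2 that fell among 22 tested (18.2% called, against 25.3% of all probes). Of 5 tested F1 probes 2 rose and 0 fell (40%), and of 17 Fo, stalk and other probes 0 rose and 2 fell (11.8%). Whether the parts differ was not tested. Atp5a1, the alpha subunit, gave 0.42, 0.52, 0.27 and 0.38 with probe 12086, a mean log2 ratio of 0.40 ± 0.11 (SD, n = 4, adjusted p = 0.0109), with 8 of 8 arrays above 0. Atp5d, the delta subunit of the central stalk, gave 0.22, 0.52 and 0.34 in mice 1, 2 and 4, a mean of 0.36 ± 0.15 (SD, n = 3, adjusted p = 0.0447). Its 7 measured arrays were all above 0.

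Atp5md, a small subunit also known as DAPIT that takes part in joining ATP synthase dimers, gave -0.41, -0.55, -0.59 and -0.63. The mean log2 ratio of -0.55 ± 0.09 (SD, n = 4) is 1.46-fold lower and passed at an adjusted p of 0.00447. Atp5l, the g subunit, which also lies at the dimer interface, gave -0.41, -0.48, -0.53 and -0.33 with probe 16383, a mean of -0.44 ± 0.09 (SD, n = 4, adjusted p = 0.00702). All 8 arrays were below 0 for both probes. Atp5md and Atp5l probe 16383 kept their calls without any 1 mouse, Atp5a1 lost its call without mouse 2 (adjusted p = 0.0518), and Atp5d had too few mice to leave out mouse 1, 2 or 4.

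**Figure D2:**
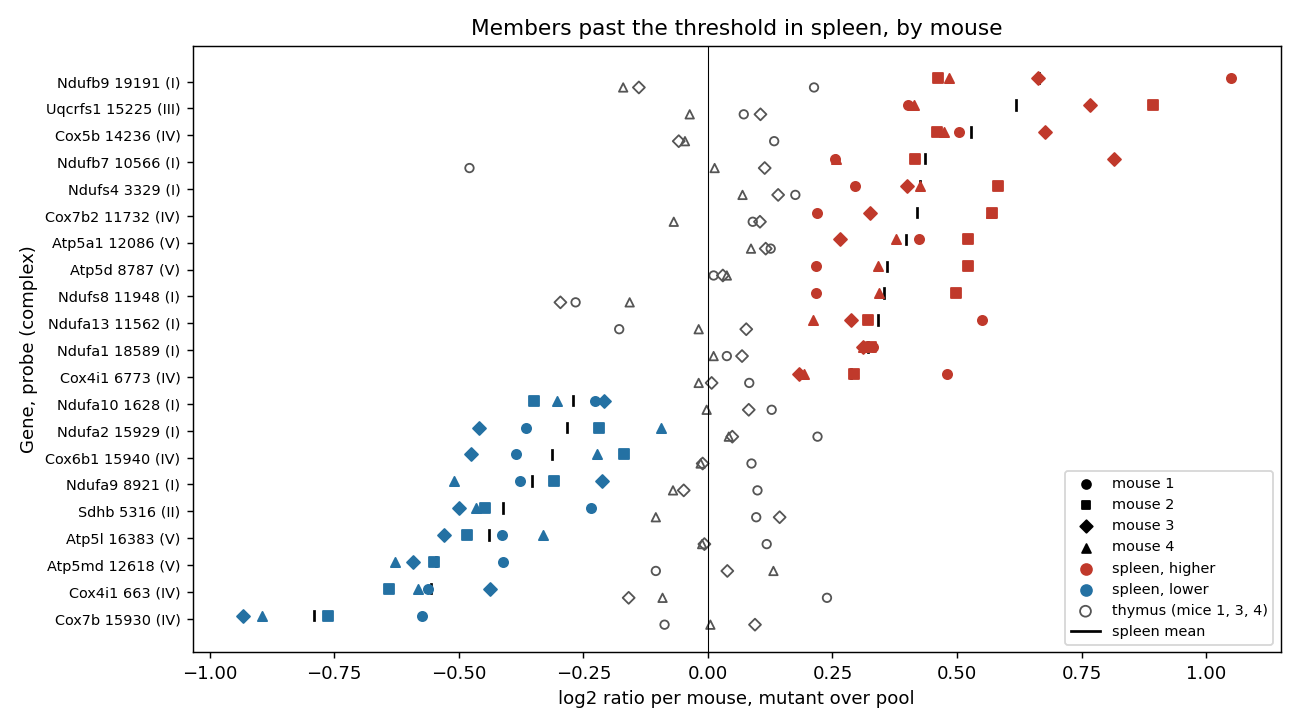
The log2 ratio (mutant over pool, x axis) of each called member probe (y axis, with its complex) in each mouse: filled symbols are spleen, open symbols thymus mice 1, 3 and 4, and bars the spleen mean. In every row the spleen mice lie on 1 side of 0, from -0.93 for Cox7b in mouse 3 to 1.05 for Ndufb9 in mouse 1.

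In spleen 9 members were not tested because fewer than 3 mice had a value on both arrays. They were the probes of Ndufa8, Uqcrh, Cox6a2, Cox6b2, Cox6c, Cox8b, Atp5b and Atp5e and probe 10903 of Ndufs4. Atp5b, the catalytic beta subunit of the F1 head, had a value on both spleen arrays only in mouse 3, a log2 ratio of -0.30. Cox6a2 and Cox8b are forms typical of muscle, and Cox6b2 is one known from testis. The other members had a value in all 4 mice for 82 probes and in 3 mice for the rest.

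Different probes of 1 gene often disagreed. Of 19 genes with more than 1 tested probe in spleen, with 44 probes in all, 9 had probes of 1 sign and 10 had probes of both signs. The annotation gave each of these genes 1 transcript. No gene had 2 or more calls in 1 direction. Exactly 1 of the tested probes passed in 6 of these genes. The median range between the lowest and highest probe of a gene was 0.21.

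Cox4i1 had the widest range, 0.84, with its other probes at 0.06 and 0.04. Cox7b probe 16331 was at -0.07 against -0.79 for probe 15930. Atp5l probe 10877 was at 0.22 against -0.44 for probe 16383. Those values put 1 probe of each gene near 0 or on the other side. Ndufa10 probe 13674 was at 0.28 against -0.27, and Cox6b1 probe 16188 at 0.15 against -0.31. The uncalled probes of Atp5a1 were at 0.10 and 0.01 against 0.40, and that of Ndufa1 at -0.05 against 0.32. Taking the mean of a gene's probes, 14 of 64 genes passed (21.9%, against 25.3% of 8836 genes), 9 higher and 5 lower. In that fit Cox4i1 was at -0.04, Ndufa10 at 0.004 and Ndufs4 at -0.09 without a call. Cox6b1 (-0.08, adjusted p = 0.417), Atp5l (-0.11, 0.24), Ndufa1 (0.13, 0.195) and Atp5a1 (0.17, 0.0738) made no call, while Cox7b kept one at -0.54 (0.0186). For Cox7b and Atp5a1 the probes shared a sign and differed in size, and Ndufb9, Uqcrfs1, Cox5b, Sdhb and Atp5md rest on a single probe each.

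**Figure D3:**
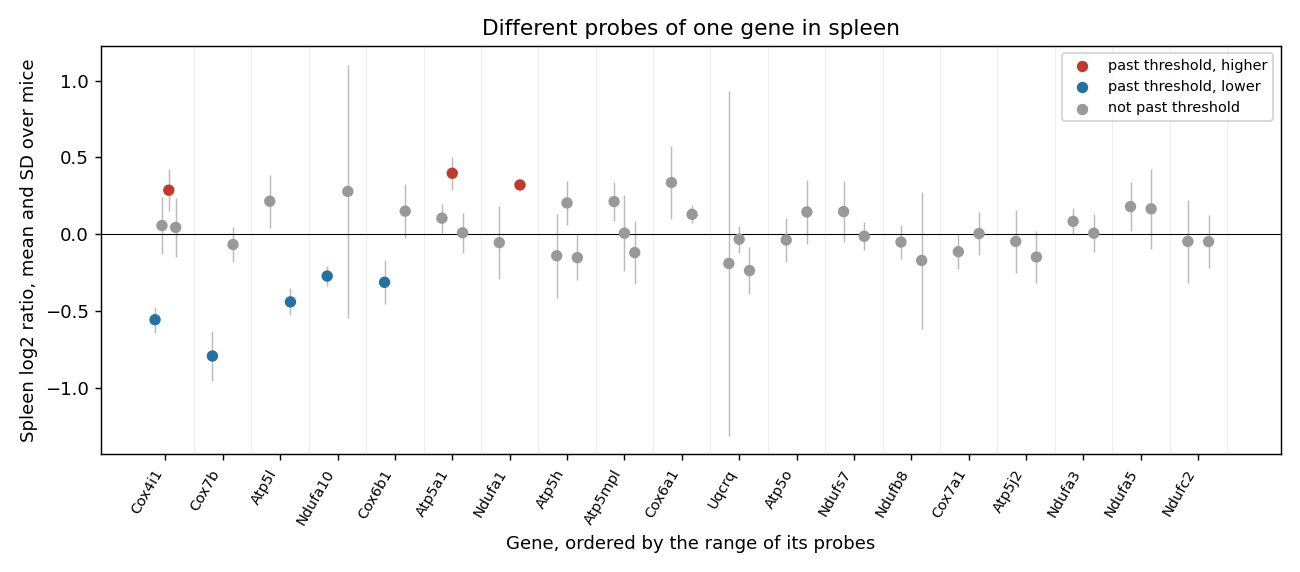
The 19 genes with more than 1 tested probe, ordered by the range of their probes; each point is the mean spleen log2 ratio of 1 probe and its bar the SD over mice. Cox4i1 has probes past the threshold at -0.56 and at 0.29, and in 6 other genes exactly 1 probe passed.

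The dye orientation and the position in the probe numbering were also compared with the calls. A member measured on both arrays of a spleen mouse had the same sign on both in 54.1% to 62.8% of cases, against 52.1% to 64.8% of all probes. In thymus mice 1, 3 and 4 the share was 36.3% to 40% of members. With the Cy3 arrays turned, 8 of the called spleen probes changed sign, Ndufa1 to -0.21, Ndufb7 to -0.22 and Cox4i1 probe 663 to 0.15 among them. The Cy5 and Cy3 means of Ndufb9, 0.65 and 0.67, were nearly equal, while those of Uqcrfs1 and Cox5b differed more than those of Cox7b.

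**Figure D4:**
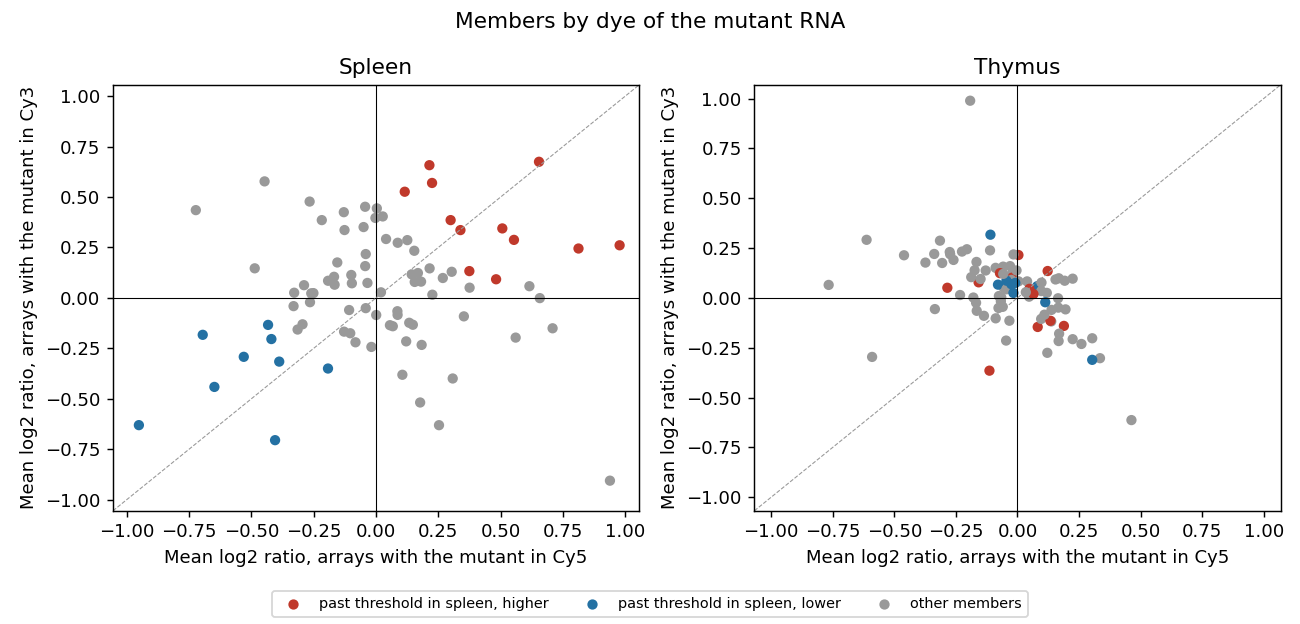
Each point is a tested member at its mean log2 ratio on arrays with the mutant RNA in Cy5 (x axis) and in Cy3 (y axis), in spleen and in thymus; colours mark the spleen calls and the dashed line equal values. Called spleen probes lie at the upper right or lower left, such as Cox7b at -0.95 and -0.63, while in thymus many members lie where the dyes disagree in sign.

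The lower probes of Ndufa2, Cox7b and Cox6b1 have the IDs 15929, 15930 and 15940. Among their tested neighbours up to 25 IDs away, 12, 12 and 16 of 49 probes were lower, against 11.9% of the array. These windows overlap and hold mostly the same probes. Around the other lower probes the counts were 4 of 50 (Ndufa10), 7 of 40 (Ndufa9), 10 of 50 (Sdhb), 1 of 49 (Cox4i1 probe 663), 3 of 50 (Atp5l) and 3 of 49 (Atp5md). With a running median over 51 IDs subtracted, Cox7b kept a log2 ratio of -0.74 (adjusted p = 0.00517). Ndufa2 went to -0.23 (adjusted p = 0.088) and Cox6b1 to -0.21 (adjusted p = 0.079), without a call. Among the higher probes, Ndufs4 went to 0.18 (adjusted p = 0.127) and Cox7b2 to 0.15 (adjusted p = 0.251). The called probes of Ndufb7, Ndufa10, Ndufa13, Ndufs8, Cox4i1 (6773) and Atp5d also made no call there. In that fit 14 of 89 members passed (15.7%, against 18.3% of all probes), 5 higher and 9 lower. Of the 21 spleen calls 11 were kept. Ndufb5 (-0.36, adjusted p = 0.012), Uqcrq probe 13575 (-0.33, 0.0313) and Cox8a (-0.32, 0.033) were lower only with the running median subtracted. What places neighbours share on the array is not given in the labels, and its part in these values was not tested.

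In thymus no member passed. Of 91 tested, 0 passed in limma (background 0 of 20130 probes), and 7 had an unadjusted p below 0.05, against 725 of all probes. With the Cy3 arrays turned, 0 members passed and 14 had an unadjusted p below 0.05, against 2164 of all probes. The members' median log2 ratio was 0.01, with an SD over probes of 0.10, compared with 0.25 for the spleen members. Per complex the medians lay between -0.01 and 0.04. The highest thymus mean, 0.40 for Atp5j2 probe 10314, rested on mouse 3 at 1.44, against -0.14 and -0.11 in mice 1 and 4. Atp5j2 probe 10314 and the probes named next, those with the smallest p per direction, all had an adjusted p of 0.866 (limma).

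Above 0, Ndufs4 probe 3329 had a thymus log2 ratio of 0.13 ± 0.05 (SD, n = 3) and Atp5mpl probe 5479, a small membrane subunit of the ATP synthase, 0.13 ± 0.08. Atp5e, the epsilon subunit of the central stalk, was at 0.12 ± 0.05 and Atp5a1 probe 12086 at 0.11 ± 0.02. Each had all 3 mice above 0 as means of the pairs, from 0.05 to 0.19. By dye of the mutant, Atp5a1 probe 12086 averaged 0.004 in Cy5 and 0.215 in Cy3. The Cy5 and Cy3 means were 0.12 and 0.13 for Ndufs4, 0.17 and 0.10 for Atp5mpl and 0.15 and 0.09 for Atp5e. Below 0, Ndufs8 gave -0.27, -0.30 and -0.16 in mice 1, 3 and 4, a mean of -0.24 ± 0.07 (SD, n = 3), the smallest unadjusted p of a member at 0.00368. Ndufs4 probe 10903 was at -0.44 ± 0.38, Atp5j2 probe 12353, the f subunit of the ATP synthase, at -0.20 ± 0.14, and Cox7c, a small complex IV subunit, at -0.10 ± 0.04. The spread of Ndufs4 probe 10903 was wide, with mice 1, 3 and 4 at -0.79, -0.50 and -0.04.

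Among the largest spleen calls, Cox7b had a thymus log2 ratio of 0.00 ± 0.09 (SD, n = 3; 95% interval -0.13 to 0.14), Cox5b 0.01 ± 0.11 (-0.13 to 0.15) and Atp5md 0.02 ± 0.12 (-0.13 to 0.17). Their spleen means lay outside those intervals. Ndufb9 was at -0.03 (-0.24 to 0.18), Uqcrfs1 at 0.05 (-0.08 to 0.17) and Sdhb at 0.05 (-0.11 to 0.20). Of the members called in spleen, Ndufs8 (-0.36 to -0.12), Ndufs4 probe 3329 (0.01 to 0.25) and Atp5a1 probe 12086 (0.001 to 0.22) had thymus intervals that did not include 0, without passing after adjustment.

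Whether a log2 ratio differed between the tissues was tested as spleen minus thymus in 1 fit. Of 88 members 14 passed (15.9%), 6 higher and 8 lower in spleen, against 13.9% of 19948 probes (5.91% higher and 8.04% lower). Cox7b differed by -0.80 (SE 0.11, adjusted p = 0.00554), Atp5md by -0.57 (SE 0.09, 0.00817), Cox5b by 0.52 (SE 0.09, 0.0103) and Atp5l by -0.47 (SE 0.08, 0.0103). Ndufs8 differed by 0.59 (SE 0.10, 0.0122). Its pair means were above 0 in spleen mice 1, 2 and 4 and below 0 in thymus mice 1, 3 and 4. Single arrays went the other way, such as 0.044 and 0.015 in thymus mice 1 and 4 with the mutant in Cy5. Thymus mouse 2, which was left out, had 0.726 in Cy5 and -0.663 in Cy3. Cox4i1 probe 663 differed by -0.55 (SE 0.11, 0.0156). The same animals gave both tissues, and with mouse as a block, which compares the tissues within mice 1, 3 and 4, 0 of 88 members passed in limma (18 at an unadjusted p below 0.05), nor did any of 19948 probes. Without mouse 3 or without mouse 4 the count was 0, and without mouse 1 or mouse 2 it was 9. With thymus mouse 2 kept it was 14 to 21. The shares of all probes in these last fits are not given, so the counts are not set against the array.

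Other genes of mitochondrial energy metabolism were mixed in direction in spleen too. Of the assembly factors that the symbols above do not cover, 3 probes rose and 4 fell among 32 (21.9% called, against 25.3% of all probes). Acad9, needed to assemble complex I, was at 0.65 (adjusted p = 0.00432) and Ttc19, a complex III factor, at -0.66 with probe 3633 (0.00401). The other Ttc19 probe, 20176, was at -0.15 and did not pass. Bcs1l, which inserts the Rieske protein Uqcrfs1 into complex III, was at 0.49 with probe 3406 and at -0.87 with probe 7449 (adjusted p = 0.0153 and 0.00401), again with 1 gene called both ways. Among 21 probes of electron carriers and transporters 2 rose and 3 fell (23.8% called). Coq8a, a coenzyme Q synthesis factor, was at 0.68 with probe 6406 and the electron transfer flavoprotein subunit Etfb at 0.25. The other Coq8a probes, 2434 and 3467, were at 0.20 and -0.002 and did not pass. Coq4, another coenzyme Q factor, was at -0.77 with probe 20511 and the phosphate carrier Slc25a3 at -0.62. The other Coq4 probe, 16122, was at -0.13 and did not pass.

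The list for the mitochondrial genome and its expression held 44 symbols, of which 13 were on the array. All 13 are nuclear genes, so no gene encoded by mitochondrial DNA was measured under these symbols. Among their 20 probes, 5 rose and 4 fell (45% called, against 25.3% of all probes). Tfam, which packs and transcribes mitochondrial DNA, was at 0.73 with probe 12011 and the single-strand binding protein Ssbp1 at 0.62. The other Tfam probe, 3110, was at 0.13 and did not pass. Gabpb1, a subunit of the factor GABP, was at -0.76, and the transcription termination factor Mterf1a at -0.67. Gabpa, the DNA-binding subunit of GABP, was at 0.18 (adjusted p = 0.0982). Nrf1 was at 0.32 with probe 6261 (adjusted p = 0.0248) and at 0.15 and 0.04 with its other probes, which did not pass. Both were named after their values had been seen. In the tricarboxylic acid cycle 3 of 25 rose and 2 fell (20% called). Dlst, of the oxoglutarate dehydrogenase complex, was called at 0.57 and 0.52 with probes 7299 and 16928 and at -0.43 with probe 82, and fumarase Fh1 was at -0.42. None of these probes passed in thymus.

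Markers of cells that spleen and thymus can hold were set beside these results. In spleen 25.3% of all probes passed, and 0 of 4 B cell and 0 of 5 T cell marker probes did. Macrophage markers gave 1 higher and 2 lower of 5 probes (60% called), with log2 ratios from -0.52 to 0.63. Erythroid markers gave 0 higher and 2 lower of 8 (25%), from -0.94 to 0.10. Striated muscle markers gave 1 higher and 3 lower of 8 (50%), from -0.60 to 1.01. Brown adipose gave 0 higher and 1 lower of 3 (33.3%), and thymic epithelium 1 higher and 1 lower of 6 (33.3%). None passed in thymus. Ratios carry no levels, and the part of these cells in the members' values was not tested.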

How the data were processed

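The authors deposited 1 table of processed ratios per probe and array, read here as log2 ratios because they take both signs around 0. Scanner, normalization and log base were not stated there. An extreme constant (15.1 to 16.9 in size, against 7.66 for the largest other value), shared by 25 to 137 probes per array, was set to missing, and 20046 to 20639 probes remained, with array medians of -0.023 to 0.086. Arrays are limited in precision by their number. RNA labelling was indirect, with Cy3 or Cy5, per the labels' protocols. The mean of the 2 dye-exchanged arrays was 1 replicate, and probes needed 3 mice. limma 3.58.1 (R 4.3.3) tested each tissue against 0, fitted alone because the spread differs between tissues, and spleen minus thymus in a joint fit, with Benjamini-Hochberg adjustment over all probes at 0.05. The fit was tested on simulated data.

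The same animals gave both tissues, so mouse numbers pair them; same-mouse deviations from the tissue means correlated at -0.046, -0.010 and -0.086 for mice 1, 3 and 4. Named in spleen were the 3 largest calls per complex and direction with 1 sign in every mouse, in thymus the 4 smallest p per direction, for the difference the 6 smallest p, and of each pathway list at most 2 per direction. Members, lists and tests were chosen with earlier results of these data known. Symbols came from the platform annotation. Alternatives were the joint fit, the variance of the pool, centring, turned Cy3 arrays, the constants, a running median, a 1.2-fold test, gene means, complete probes, a robust prior, the block and leaving out each mouse.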

Additional observations from a re-analysis of the deposited data

Results flagged for a closer look

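The log2 ratio differed between the tissues, tested as spleen minus thymus in limma, for 14 member probes. Higher in spleen than in thymus were Ndufb9 by 0.70, Ndufs8 by 0.59, Uqcrfs1 by 0.57, Cox5b by 0.52, Ndufa13 by 0.38 and Ndufa1 by 0.28. Lower in spleen were Cox7b, with a difference of -0.80, Atp5md with -0.57, Cox4i1 probe 663 with -0.55, Atp5l with -0.47, Sdhb with -0.46, Ndufa2 with -0.39, Ndufa9 with -0.35 and Ndufa10 with -0.34. None of them passed with mouse as a block.

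Among 82 members with all 4 spleen mice, 5 had 1 mouse far from the others by Dixon's 95% criterion, and chance gives about 1 in 20. Uqcrq, a small complex III subunit, was at -1.87 in mouse 1 with probe 2563, against 0.38, 0.38 and 0.36 in the other mice. Atp5h, a stalk subunit of the ATP synthase, was at -0.55 in mouse 2 with probe 3639 and at 0.065 in mouse 1 with probe 19212. Ndufa1 probe 16074 was at 0.30 in mouse 1, and the assembly factor Ndufaf7 at -0.089 in mouse 2. None of these 5 probes made a call in spleen.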

How the results depend on the processing

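The spleen count of 21 calls was 29 in the joint fit, 18 with array medians at 0 (9 higher and 9 lower) and 18 with the constants kept. It was 14 with the running median subtracted (5 higher and 9 lower), 11 of them among the 21. It was 14 of 64 gene means, 19 of 82 complete probes and 21 with a robust prior. It was 5 with the variance of the pool added, 2 in the 1.2-fold test, 0 with the Cy3 arrays turned, and 8 to 20 without 1 mouse. Atp5md, Cox5b, Cox7b, Ndufb9 and Uqcrfs1 kept their calls under all of these except the turn, the variance of the pool and the 1.2-fold test. Atp5md, Cox5b, Ndufb9 and Uqcrfs1 rest on a single probe each, so gene means left their values unchanged. All 5 had a value in every spleen mouse, so the fit of complete probes could not drop them. The 14 calls for the difference were 0 with the replicate block, 1 with the variance of the pool, 0 with the Cy3 arrays turned (1 at an unadjusted p of at most 0.05), 9 with the running median, 0 in the 1.2-fold test, 9 of gene means and 0 to 9 without 1 mouse. For several of these fits no share of all probes is given here or above. Such counts do not show whether the members differed from the whole array. Thymus gave 0 member calls under every alternative run, with 0 to 14 members at an unadjusted p below 0.05, the most with the Cy3 arrays turned. With the Cy3 arrays turned, the signs changed in spleen for Ndufa1 (-0.21), Ndufa10 (0.079), Ndufa13 (-0.043), Ndufb7 (-0.22), Ndufb9 (-0.010), Cox4i1 probe 663 (0.15), Atp5a1 (-0.17) and Atp5d (-0.021). For the difference they changed for Ndufa1 (-0.14), Ndufa10 (0.068), Ndufa2 (0.064), Ndufa9 (0.036) and Ndufb9 (-0.12). As gene means, Ndufa10 (0.0037), Ndufs4 (-0.090) and Cox4i1 against probe 6773 (-0.040) changed sign, since the mean takes in the other probes. The spleen medians moved with the turn to -0.08 in complex I, -0.10 in complex II and 0.11 in complex IV, and the thymus medians to -0.04 in complexes I and III and -0.09 in complex V. Leaving out 1 mouse moved the spleen medians of complex IV (0.10 without mouse 4) and V (-0.05 without mouse 3) and the thymus medians of complex I (0.03 without mouse 1) and III (0.0008 without mouse 3). Other causes were not tested.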
